A study of Drosophila melanogaster with 7 samples.

Results

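The expression profile of wild-type first-instar larvae of *Drosophila melanogaster* was taken from 3 Affymetrix arrays, each hybridised with biotin-labelled polyA RNA from 1 pool of 400 whole larvae of mixed sex and mixed tissue. These are the wild-type arrays among the 7 of a study of *pof* mutants, and the 4 mutant arrays were not used here. The labels name no stock, no added agent and no age in hours for the wild-type larvae, and the design text calls the pools biological replicates. All 12443 probe sets that name 1 gene and are not array controls entered, of 13966 non-control probe sets in all. The probe set with the highest mean stood for its gene, and the 10844 genes were ranked by their mean log2 expression over the pools, called pools 1, 2 and 3 after the replicate numbers in the titles. The ranking chose what counts as high and low, so levels are given as a description, with no test, and errors are SDs over the 3 pools.

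A first-instar larva has just hatched. It feeds without pause, moves by its body wall muscles, breathes through air-filled tracheae and will shed its cuticle at the coming moult. Most of its mass is midgut, fat body, muscle and epidermis, whose cells are large, differentiated and rich in RNA, while the imaginal cells, the germ line and the sense organs are small groups of cells. In whole larvae, fewer cells of a type and less RNA per cell cannot be told apart.

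The level scale of the array has a broad floor. On these arrays 23 control probe sets match transcripts of *Bacillus*, mouse or yeast rather than fly genes. Their mean log2 values ran from 3.32 to 6.13 with a median of 4.08, and those of the 8 mouse and yeast probe sets alone from 3.36 to 5.73. The sources used here do not say whether *Bacillus* RNA was added to the samples. The highest of the 23 lay at the 48.4 percentile of the genes, and 5592 genes (51.6%) lay above it, while 6606 genes (60.9%) lay above the highest mouse or yeast control. Genes ranged from 2.83 to 13.7, with a middle value of 6.20, a limit of 4.73 for the lowest 20% and a limit of 9.11 for the highest 5%. These highest 542 genes are called the top group and the lowest 2169 genes the lowest group.

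Positions in this range are positions of array signal, since probes of different genes do not bind equally well. In 1209 genes with several probe sets, the highest and the lowest probe set of the same gene differed by a median of 1.56 on the log2 scale, and by 3 or more in 191 genes (15.8%). The same probe sets varied over the 3 pools with a median SD of 0.13. *Vha16-1*, a proton pump subunit singled out after its values were seen, had 11.6 on 1 probe set and 5.28 on the other. The pools thus measured a given probe set far more tightly than different probe sets measured a given gene, and differences between genes in the text are differences of array signal only.

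Ribosomal proteins, digestive proteases and a muscle myosin chain made up the top of the range. Of the 25 highest genes, 14 encode proteins of the cytosolic ribosome, 4 encode midgut serine proteases and 1 encodes a sarcomere protein, and 6 belong to none of the gene lists. The highest was *Jon99Fii*, a protease of the Jonah family, with log2 levels of 13.42, 13.76 and 13.79 on pools 1, 2 and 3. Its probe set is of the sequence-family type, whose probes match several related genes, and its neighbour *Jon99Fi* (13.18, 12.70 and 12.66) is closely related, so its signal cannot be assigned to 1 of these genes alone. *RpS20*, of the small ribosomal subunit, had 13.53, 13.36 and 13.48, and *RpL32*, of the large subunit and often used as a reference gene, had 13.27, 13.26 and 13.24. The 3 values of *RpL32* lay closer together than those of most genes.

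*Mlc2*, the regulatory light chain of muscle myosin, ranked 4 with 12.89, 13.36 and 13.61, lowest on pool 1. *epsilonTry*, a trypsin, had the largest spread of the 25, with 13.45, 12.59 and 12.95 and an SD of 0.43. *Rack1*, a scaffold protein bound to the small ribosomal subunit, had 13.00, 13.31 and 13.29. *Nplp2* (13.15, 13.02 and 12.96) and *Nplp4* (12.82, 13.08 and 13.22) are named for neuropeptide-like precursors, and the other 3 genes on no list, *CG14302*, *CG13674* and *CG12310*, carry only an annotation number. Of the 25 genes, 22 were also among the 25 highest when pool 1 was left out.

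**Figure D1:**
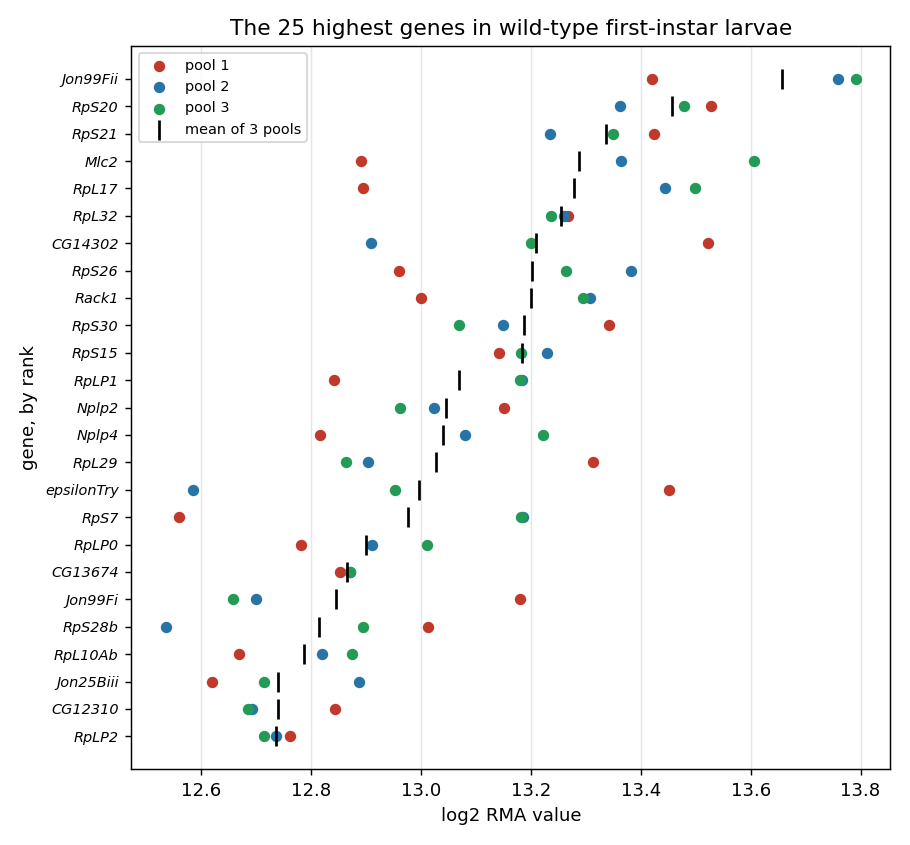
Log2 RMA value (horizontal axis) of the 25 highest genes, ordered by their mean (vertical axis), with 1 point for each pool and a bar at the mean of the 3 pools. The means lie between 12.74 and 13.66, and pool 1 is the lowest point for *Mlc2*, *RpL17* and *RpS7* and the highest for *epsilonTry*, *RpL29* and *CG14302*.

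Most measured genes of the lists for protein synthesis and energy supply were in the top group. Of 82 listed cytosolic ribosomal protein genes, 27 had a probe set naming them alone, and 25 of these were in the top group, with a median level of 12.74. All 25 lay at or above 11.96. The other members, *RpS29* (8.75, 8.68 and 8.75) and *RpL37-2* (8.02, 7.74 and 7.75), had lower signals, and the pools gave similar values for both. Translation factors were lower, at a median of 9.28 with 13 of 22 in the top group. They were led by the RNA helicase *eIF4A* (9.81, 11.73 and 12.02) and the elongation factor subunit *eEF1gamma* (10.27, 11.47 and 11.53), both lowest on pool 1.

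Mitochondrial respiration had 38 of its 43 measured genes in the top group and a median of 10.86. Its highest members were subunits of cytochrome c oxidase, the last complex of the respiratory chain: *cype* (12.76, 12.44 and 12.32), *COX5B* (12.35, 12.23 and 12.22), *COX4* (11.88, 12.48 and 12.40) and *levy* (12.49, 12.17 and 12.08). *COX7C* (5.07, 4.95 and 4.70) and *ND-B8* (4.38, 4.11 and 4.10), which encode subunits of the same chain, lay within the range of the non-fly controls on all pools. Of 9 measured glycolysis genes 8 were in the top group, led by the aldolase gene *Ald1* (11.43, 12.50 and 12.41) and *Gapdh1* (10.86, 11.82 and 12.07). The hexokinase gene *Hex-A* was the exception at 5.90, 6.02 and 6.27.

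The vacuolar proton pump, which acidifies organelles and drives transport in the gut and the tubules, had 13 of 16 genes in the top group. Its highest members were *Vha16-1* (10.71, 11.79 and 12.32) and *Vha26* (10.40, 11.23 and 11.42). The proteasome, which degrades proteins, lay lower, with 4 of 26 in the top group, a median of 8.21 and no member in the lowest group. *Prosalpha2* led it with 10.41, 10.15 and 10.15. Chaperones made without stress had 5 of 6 in the top group, among them *Hsc70-4* (8.81, 10.42 and 10.60) and *Hsp60A* (9.45, 10.41 and 10.05).

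The cell cycle and DNA replication list stood apart from the rest of the basic machinery. Its median was 5.55, with none of 19 genes in the top group and 6 in the lowest. *PCNA*, the sliding clamp of DNA replication, was its highest member at 7.90, 7.82 and 7.40, followed by the mitotic cyclin *CycB* at 7.64, 7.71 and 7.62. *CycE*, which starts DNA replication, lay at 3.85, 3.65 and 3.51, and *fzy*, an activator of mitotic exit, at 4.16, 4.05 and 3.87. The pools agreed closely for the list, with a median SD of 0.09 against 0.14 over all genes.

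**Figure D2:**
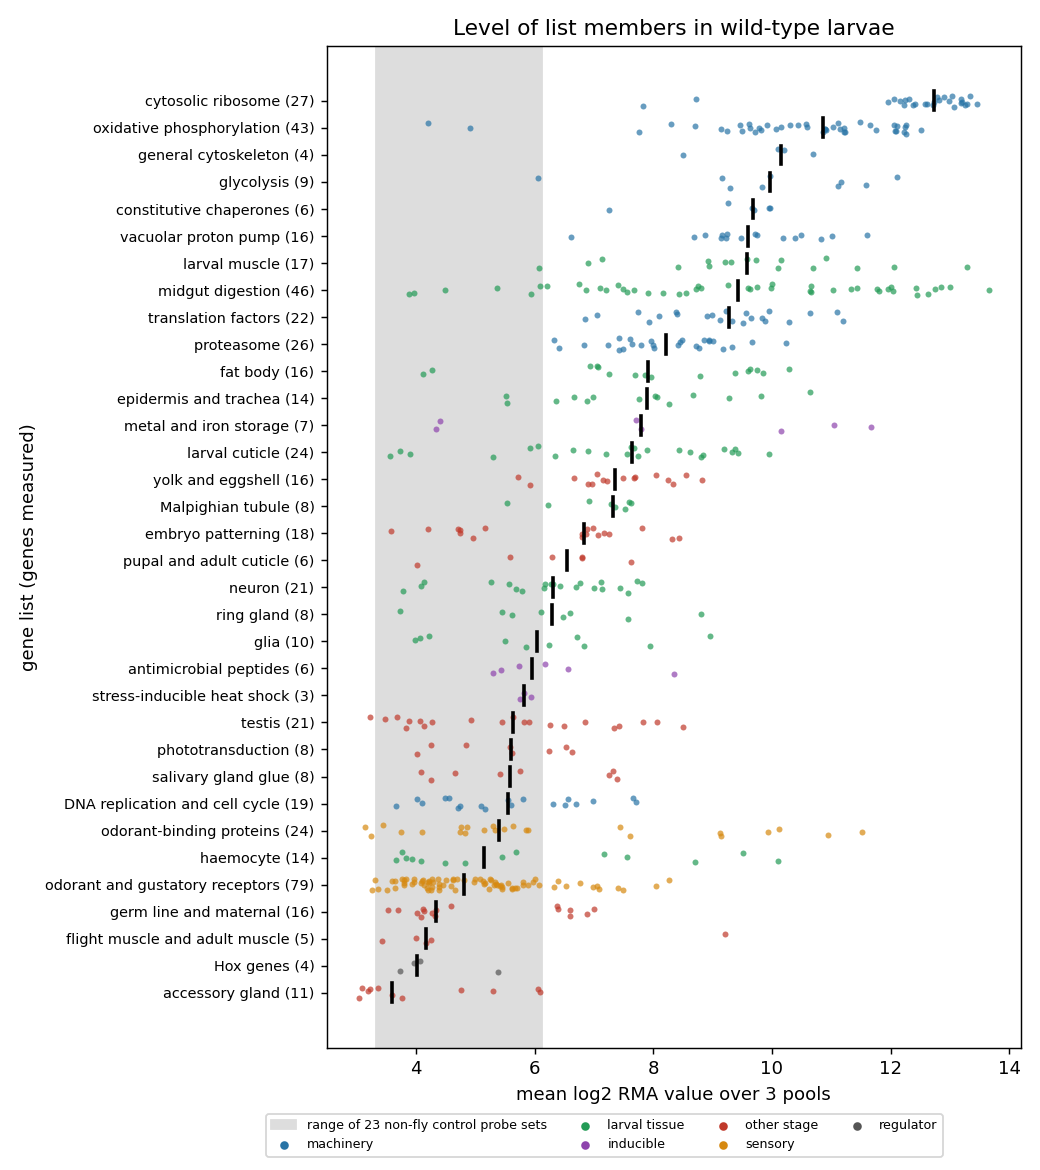
Mean log2 RMA value over the 3 pools (horizontal axis) of each measured member of the 34 gene lists (vertical axis, ordered by their medians, with the number of genes measured). Points are genes, coloured by the class of the list, black bars are list medians, and the grey band spans the non-fly control probe sets from 3.32 to 6.13. Ribosomal and respiration genes lie at the right, and accessory gland, Hox and germ line genes lie mostly inside the band.

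Among the larval tissues the midgut gave the largest number of top genes, and body wall muscle the largest share. Of 46 measured digestion genes 24 were in the top group, with a median of 9.42 and a range from 3.89 to 13.7. The Jonah proteases of the 25B cluster were among them, *Jon25Biii* with 12.62, 12.89 and 12.71. Members of the same family were far apart. The lysosomal alpha-mannosidase genes *LManIII* (3.35, 4.74 and 3.83) and *LManIV* (3.84, 3.98 and 3.84) lay at the floor, while *LManV* (8.9, 10.45 and 9.43) and *LManVI* (8.06, 9.62 and 8.60) were high and highest on pool 2. For *LManIII* too, pool 2 gave the highest of the 3 values.

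Body wall muscle had 11 of 17 measured genes (64.7%) in the top group, against 52.2% for digestion, and a median of 9.57. After *Mlc2* came the calponin-like gene *Mp20* (11.46, 12.22 and 12.49), the essential light chain gene *Mlc1* (10.65, 11.53 and 12.12) and the actin gene *Act87E* (9.69, 11.36 and 11.67), whose sequence-family probe set could also bind other actins. All of these were lowest on pool 1 and highest on pool 3. The giant sarcomere protein *bt* (6.55, 6.87 and 7.28) lay much lower. The muscle LIM protein gene *Mlp60A* was lowest, at 6.28, 6.02 and 5.94, with a mean of 6.08 that is within the range of the controls.

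Cuticle proteins, which with chitin form the exoskeleton, were spread from the floor into the top group. The 24 measured members had a median of 7.65, with 5 in the top group and 3 in the lowest. *Ccp84Ad* (9.85, 9.78 and 10.23), *Ccp84Ag* (9.47, 8.88 and 9.93) and *Ccp84Ae* (9.38, 9.31 and 9.45) of 1 gene cluster were the highest of this list, and *Cpr49Ae* (3.76, 3.43 and 3.51) and *Cpr49Ah* (3.85, 3.72 and 3.62) were at the floor. The probe set of *Ccp84Ad* is of the sequence-family type, so its signal could include related genes of the cluster. A cuticle gene outside the list, *Cpr47Eg*, was higher still, with 12.88, 12.33 and 12.81 at rank 27, and was noted after its values were seen. In the epidermis and trachea list 3 of 14 were in the top group. *Idgf4*, a chitinase-like secreted protein, had 10.18, 10.84 and 10.91, and the chitin-binding protein gene *obst-E* 9.78, 9.65 and 10.03. The chitin deacetylase genes *verm* (8.63, 9.36 and 9.85) and *serp* (7.99, 8.78 and 9.24) were lowest on pool 1.

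Fat body genes had a median of 7.91, with 6 of 16 in the top group. The lipoprotein gene *apolpp*, which carries lipid in the haemolymph, had 9.97, 10.32 and 10.56. The lipid droplet protein gene *Lsd-1* had 9.66, 10.05 and 9.83, the clotting gene *fon* 9.79, 9.80 and 9.65 and the fatty acid synthase *FASN1* 9.51, 9.56 and 9.83. *Fbp2* (4.30, 4.28 and 4.24), known for its high expression in the fat body late in larval life, and *AkhR*, the receptor of adipokinetic hormone (4.42, 3.90 and 4.04), lay in the lowest group. These floor values were similar in all pools.

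Nervous system markers had medians near the middle of the range, with members spread widely around them. The 21 measured neuronal genes had a median of 6.31, with none in the top group, 6 in the middle group, the genes between the 40 and 60 percentiles, and 3 in the lowest group. The highest were *Rop*, a regulator of vesicle fusion (7.29, 8.07 and 8.08), the synaptic vesicle chaperone gene *Csp* (7.80, 7.53 and 7.84), *Appl* (7.63, 7.56 and 7.53) and *Gad1*, the enzyme that makes GABA (6.91, 7.70 and 7.70). *elav*, the usual marker of neurons, lay at 3.27, 3.58 and 4.49, with a mean of 3.78 that is near the lower end of the control range. Glial genes had a median of 6.04. *Gs2*, a glutamine synthetase (7.99, 9.09 and 9.77), was the highest and *gcm*, the switch for glial fate in the embryo (4.24, 3.88 and 3.82), the lowest.

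Haemocyte markers separated into high and low members. The basement membrane genes *Col4a1* (8.79, 10.67 and 10.83) and *vkg* (8.94, 9.78 and 9.79), both of collagen IV, and *Ppn* (7.83, 9.12 and 9.15) were high, and fat body is known to make collagen IV as well. The phagocytosis receptors *NimC1* (3.86, 3.72 and 3.71) and *eater* (3.91, 3.51 and 3.56) were at the floor. In all, 6 of 14 were in the lowest group and the median was 5.14. High and low members stood side by side, so the list gives no common level.

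The smaller organs differed in position. Malpighian tubule genes had a median of 7.32, at the 76.2 percentile of all genes, and were led by the potassium channel gene *Irk2* (7.18, 7.80 and 7.90). Of the ring gland list, *Akh*, the adipokinetic hormone made by a few neurosecretory cells, stood out at 8.89, 8.78 and 8.73, a rank of 673. The ecdysone synthesis gene *dib* had 5.41, 5.62 and 5.34, and *jhamt*, an enzyme of juvenile hormone synthesis, 4.03, 3.65 and 3.54. The position of each gene rests on the 1 probe set that stood for it, the higher of 2 for *Irk2*. The tubule median is no higher than that of the eggshell and yolk genes, at the 77.0 percentile, so it cannot be read as a high position for this organ.

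The genes nearest the middle rank had levels of 6.20. Of these 10 genes 7 carry an annotation number only, and the others were *Abi* (6.20 on every pool), a regulator of actin assembly, the small GTPase gene *Rab35* (6.29, 6.10 and 6.21) and *esc* (6.40, 6.10 and 6.09), a subunit of the Polycomb complex that methylates histone H3. They lay just above the highest non-fly control, so the middle of the ranking is close to the upper end of the control range. At the bottom, the 10 lowest genes ranged from 2.83 to 3.00. Of these 6 carry only a number, and the named ones were *Sema1a* (2.97, 2.90 and 3.07) and *sdk* (3.02, 2.81 and 2.94), which act in the nervous system, *shu* (3.07, 2.85 and 2.84) and *Rcd7* (3.10, 2.94 and 2.89). Values at this floor have no order.

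Lists grouped as markers of other stages ranged from the floor to well above the control range, depending on the list. The grouping does not mean that a larva lacks all of these tissues, since the germ line is present in it. The 11 measured accessory gland genes, whose products are made by adult males, had a median of 3.59, with 7 in the lowest group and the highest, *SP*, at 6.33, 5.97 and 5.99. Of the adult muscle genes, *Act88F* (4.18, 4.15 and 4.16), *fln* (4.16, 3.94 and 3.89), *TpnC41C* and *TpnC4* were in the lowest group. The exception was *Act79B* (8.58, 9.41 and 9.66), whose sequence-family probe set could also bind other actins. The salivary glue genes, expressed late in larval life, had a median of 5.59, with *Sgs3* at 4.33, 4.25 and 4.18, but *Sgs1* (7.74, 7.23 and 7.19), *Sgs8* and *Sgs7* were well above the control range. Pupal and adult cuticle genes had a median of 6.55 with 1 of 6 in the lowest group, *Edg78E* (4.26, 3.89 and 3.92), and *Acp1* was highest at 7.69, 7.61 and 7.58. Phototransduction genes of the eye had a median of 5.60 with 2 of 8 in the lowest group, and the channel gene *trpl* was highest at 6.72, 6.63 and 6.52.

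Eggshell and yolk genes had the highest median of the lists for other stages. These 16 genes, known from ovarian follicle cells and the adult female fat body, had a median of 7.36 and none in the lowest group. *Cp16* lay at 8.92, 8.80 and 8.76, and *Vm32E* at 8.53, 8.61 and 8.49, ranks 662 and 857. Testis genes had a median of 5.63 with 8 of 21 in the lowest group, but *Mst98Ca* reached 8.60, 8.44 and 8.47 and *Mst84Dd* 7.92, 8.11 and 8.15. Embryonic patterning genes had a median of 6.83, above that of neuronal genes, with *eve* at 8.71, 8.32 and 8.29. The pools differed little, with median SDs of 0.14 for eggshell and yolk genes and 0.12 for the testis and patterning lists. The median over all genes was 0.14. Pool 1 was highest for 13 of 16 eggshell and yolk, 16 of 21 testis and 14 of 18 patterning genes. Over all genes the share was 50.9%. Whether the signal comes from transcript or from other binding to these probes was not tested.

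Germ line and maternal genes lay low, with a median of 4.33 and 10 of 16 in the lowest group, among them *vas* (3.93, 3.51 and 3.65), the germ line RNA helicase, and *orb* (3.87, 3.49 and 3.24). The 4 measured Hox genes had a median of 4.01, and *Scr* had 3.74, 3.74 and 3.72. Odorant and gustatory receptors formed the largest list at the floor. Of 79 measured, 39 were in the lowest group and none in the top group, with a median of 4.81. *Gr8a* (8.34, 8.18 and 8.28) and *Or22c* (8.24, 7.90 and 7.97) were the highest, at levels reached by eggshell genes.

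Odorant-binding proteins, small secreted carriers, differed from the receptors in having members at both ends. Of 24 measured, 6 were in the top group, led by *Obp56a* (11.65, 11.95 and 10.95), *Obp44a* (10.44, 11.43 and 10.95), *Obp99c* (9.90, 10.49 and 9.99) and *Obp99a* (9.86, 10.09 and 9.86). *Obp69a* (3.25, 3.14 and 3.06) and *Obp57c* (3.66, 3.06 and 2.99) were at the floor, and 5 were in the lowest group. The high members were all lowest on pool 1 or pool 3.

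Inducible genes of immunity and heat stress lay mostly near or inside the control range, and genes of metal and iron storage did not. Of 14 listed antimicrobial peptide genes 6 were measured. They had a median of 5.96, with *DptB* highest (8.54, 8.30 and 8.19) and *Drs* at 5.29, 5.59 and 5.44. Of 13 listed heat shock genes only 3 were measured. These were *Hsp68* (5.43, 6.11 and 6.26), *Hsp26* (5.87, 5.87 and 5.71) and *Hsp27* (5.76, 5.72 and 5.80). They lay near the top of the range of the non-fly controls. In contrast, the metallothionein gene *MtnA* (12.05, 11.53 and 11.44) and the ferritin subunits *Fer1HCH* (10.88, 11.13 and 11.12) and *Fer2LCH* (9.87, 10.30 and 10.29) were in the top group, while *MtnC* (4.53, 4.33 and 4.14) was in the lowest.

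Agreement between the pools was close for pools 2 and 3 and looser for pool 1. Across the 10844 genes, Pearson's r was 0.994 between pools 2 and 3, 0.979 between pools 1 and 2 and 0.972 between pools 1 and 3. These are correlations across genes, which are not independent replicates. The median absolute difference was 0.09 between pools 2 and 3, 0.19 between pools 1 and 2 and 0.22 between pools 1 and 3 on the log2 scale. Of the 542 genes highest on each pool, 508 (93.7%) were shared by pools 2 and 3, and 441 (81.4%) by all 3. Ranked on pools 2 and 3 alone, 517 (95.4%) of the top group stayed in it.

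The spread over pools grew with level. The median SD was between 0.13 and 0.14 in every level class below 8, then 0.26 from 9 to 10 and 0.34 from 10 to 12, and 0.20 for the 63 genes at 12 or more. A range of 1 or more over the pools, a 2-fold difference, was seen for 343 (5.79%) of 5922 genes with a mean level of at least 6. Between pools 2 and 3 alone, 21 of these genes differed by as much. Pool 1 was the array farthest from the middle value for 62.9% of all genes, against 14.9% for pool 2 and 22.2% for pool 3.

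Pool 1 had a narrower scale and uneven transcripts. The array has probe sets near both ends of the transcripts of actin, eIF-4a and GAPDH, and the 3' minus 5' differences in log2 signal averaged 4.32 on pool 1, 2.02 on pool 2 and 1.92 on pool 3. All 9 spiked hybridisation controls and 21 of the 23 non-fly controls were highest on pool 1. Against the mean of pools 2 and 3, genes of pool 1 were higher by a median of 0.17 below a level of 4 and differed by -0.43 from 10 to 12. The 63 genes at 12 or more differed by 0.03. Low genes were therefore a little high on this array and genes from 10 to 12 low, while the very highest were level, and each difference of pool 1 below was seen on the array with the uneven controls. The part of transcript evenness in these differences was not tested.

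**Figure D3:**
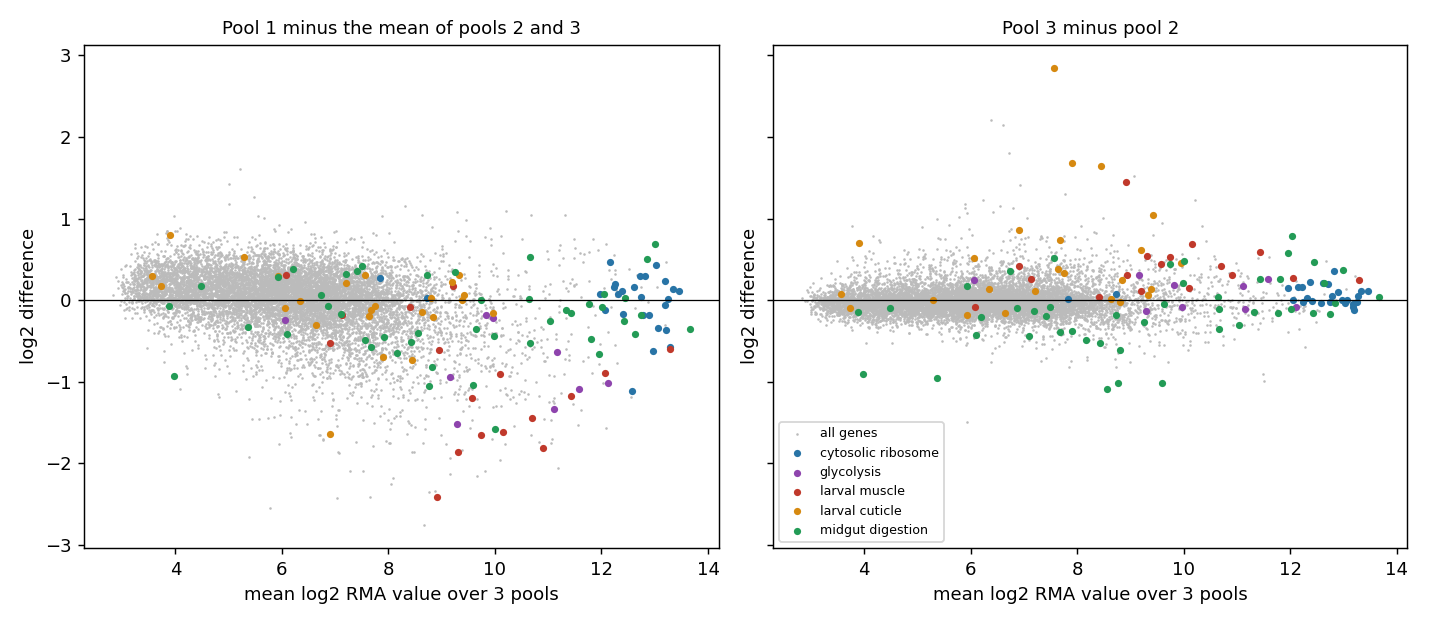
Log2 difference between pools (vertical axis) against the mean log2 RMA value over the 3 pools (horizontal axis), 1 point for each gene. Left, pool 1 minus the mean of pools 2 and 3, where muscle (red) and glycolysis (purple) genes lie mostly below 0. Right, pool 3 minus pool 2, where the spread is smaller and some cuticle genes (orange) lie up to 2.85 above 0.

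The lists differed in how far pool 1 stood off. All 9 glycolysis genes were lowest on pool 1, with a median difference of -0.94 from the mean of the other 2 pools. Muscle genes had -0.91 (15 of 17 lowest on pool 1), proton pump genes -0.78 (14 of 16) and translation factors -0.58 (18 of 22). Over all genes 35.8% were lowest on pool 1. The cytosolic ribosome, at the very top, differed by only 0.07, with 10 of 27 lowest and 15 highest on pool 1. Within the ribosome, *RpL3* was an exception noted after its values were seen, with 11.83 on pool 1 and 12.97 and 12.93 on the others.

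Receptor genes and several other low lists went the other way. Of 79 odorant and gustatory receptors 74 were highest on pool 1, with a median difference of 0.29, and of 21 testis genes 16 were. Median differences were 0.36 for salivary glue genes (7 of 8 highest on pool 1), 0.27 for ionotropic receptors (38 of 43) and 0.26 for germ line and maternal genes (12 of 16). For cell cycle and DNA replication genes the median was only 0.05 (9 of 19). The receptor and testis lists lie mainly in the level range where all genes were somewhat higher on pool 1. There the median difference over all genes was 0.13 from 4 to 5 and 0.08 from 5 to 6, smaller than that of the receptors. Eggshell and yolk genes, at a median level of 7.36, had a median difference of 0.24. All genes from 7 to 8 had -0.03. What sets these differences was not tested. Over all genes 50.9% were highest on pool 1.

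The genes with the widest spread were nearly all low on pool 1. *Pax*, which encodes the focal adhesion protein paxillin, had 6.82, 9.32 and 9.85, an SD of 1.62. The muscle troponin T gene *up* had 7.31, 8.99 and 10.44, the splicing regulator gene *Hrb98DE* 5.41, 7.81 and 7.86, and the trehalose transporter gene *Tret1-1* 6.05, 8.39 and 8.55. The carbonic anhydrase gene *CAH2* (7.20, 9.49 and 9.60) and the polyubiquitin gene *Ubi-p63E* (7.31, 9.51 and 9.80) had a similar pattern. Of 12 genes with the largest SD, *Lcp65Af* was the 1 that was not lowest on pool 1. Among genes at a level of at least 6, 216 were lower on pool 1 than the mean of the others by at least 1, and 7 were higher by as much. Those highest on pool 1 included *CG13751* (9.08, 8.06 and 7.77), the tubulin gene *alphaTub84D* (10.93 on pool 1 and 9.68 on pool 3) and *ND-MWFE* (12.01, 10.97 and 10.95), a small subunit of respiratory complex I.

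**Figure D4:**
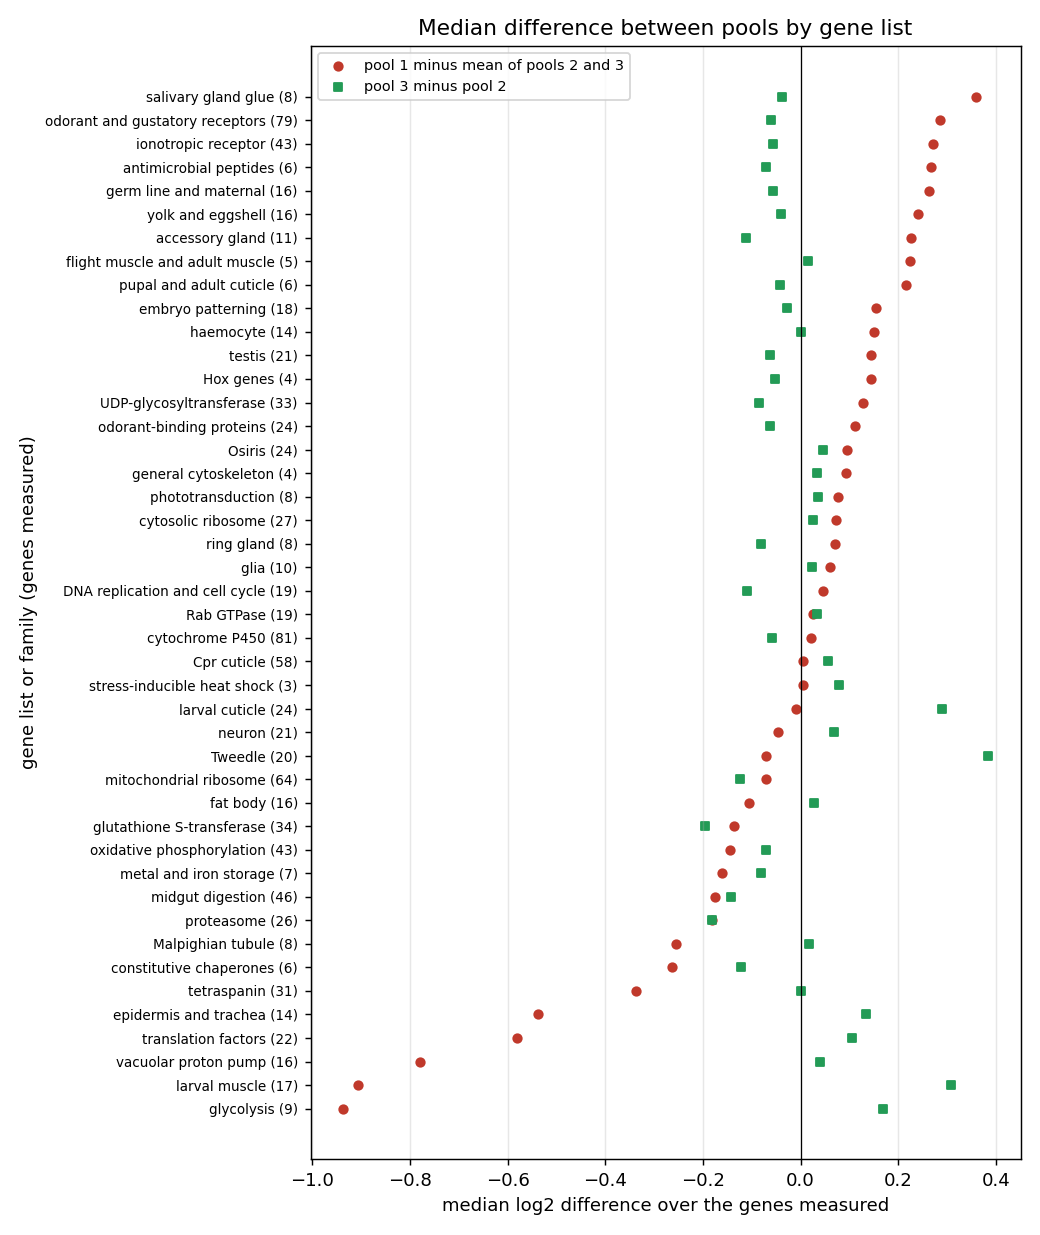
Median log2 difference over the measured genes (horizontal axis) for each gene list or family (vertical axis). Circles give pool 1 minus the mean of pools 2 and 3, from -0.94 for glycolysis to 0.36 for salivary gland glue genes, and squares give pool 3 minus pool 2, which stand out for Tweedle (0.38), larval muscle (0.31) and larval cuticle (0.29).

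Pools 2 and 3, whose 3' minus 5' differences were similar, differed in few genes. The control probe sets for fly 18S rRNA were lowest on pool 2 and highest on pool 3. The middle one had 6.48, 5.42 and 6.91 on pools 1, 2 and 3, the 3' one 5.68, 4.96 and 6.22 and the 5' one 5.30, 4.50 and 5.47. Whether this bears on the gene differences below was not tested. At a level of at least 6, 18 genes were higher on pool 3 by 1 or more and 3 were higher on pool 2 by as much. Several cuticle genes were at one end. *Lcp65Af*, a larval cuticle protein, had 6.03 on pool 2 and 8.88 on pool 3, with 7.77 on pool 1 in between. Of 24 larval cuticle genes 19 were higher on pool 3 than on pool 2, while over all genes 40.1% were. All 20 measured genes of the Tweedle family, which are also cuticle proteins, were higher on pool 3. The median differences were 0.29 and 0.38. Some Tweedle and Cpr genes are also on the larval cuticle list, so these groups share members. The medians were smaller in other cuticle groups. In the wider Cpr family 38 of 58 were higher on pool 3, with a median difference of 0.06, and of 6 pupal and adult cuticle genes 1 was, with a median of -0.04.

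*CG17290* (6.06, 5.45 and 7.65), *CG13445* (6.20, 5.72 and 7.88), *CG3355* (6.27, 6.05 and 7.86) and *Osi6* (8.91, 8.38 and 9.90), of the Osiris family of insect membrane proteins, followed the same order, with pool 2 lowest and pool 3 highest. For these genes pool 1 lay nearer to pool 2. The cuticle genes *TwdlF* (7.43, 7.29 and 8.97) and *Cpr64Ad* (7.95, 7.86 and 9.51), chosen after their values were seen, showed it too. Muscle genes were also higher on pool 3, in 16 of 17 cases and by a median of 0.31, and 12 of 14 epidermis and trachea genes were.

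Several genes of digestion were among those at the other end. *LManV* and *LManVI*, given above, were higher on pool 2 than on pool 3 by 1.02 and 1.01, and the lipid-binding gene *Acbp5* (11.99, 11.69 and 10.78) and *Obp56a* by 0.91 and 0.99. The maltase gene *Mal-A1* (8.29, 9.24 and 8.14) and the alkaline phosphatase genes *Alp9* (8.44, 9.28 and 8.45), *Alp10* (8.71, 9.5 and 8.74) and *Alp7* (9.72, 10.08 and 9.31) were chosen after their values were seen and were also highest on pool 2. For the maltase and 2 of these phosphatases pools 1 and 3 were nearly equal. Digestion genes as a list were lower on pool 3 in 31 of 46 cases (67.4%), with a median of -0.14, while 57.7% of all genes were lower on pool 3. None of the 26 proteasome genes was higher on pool 3, and 25 were lower.

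**Figure D5:**
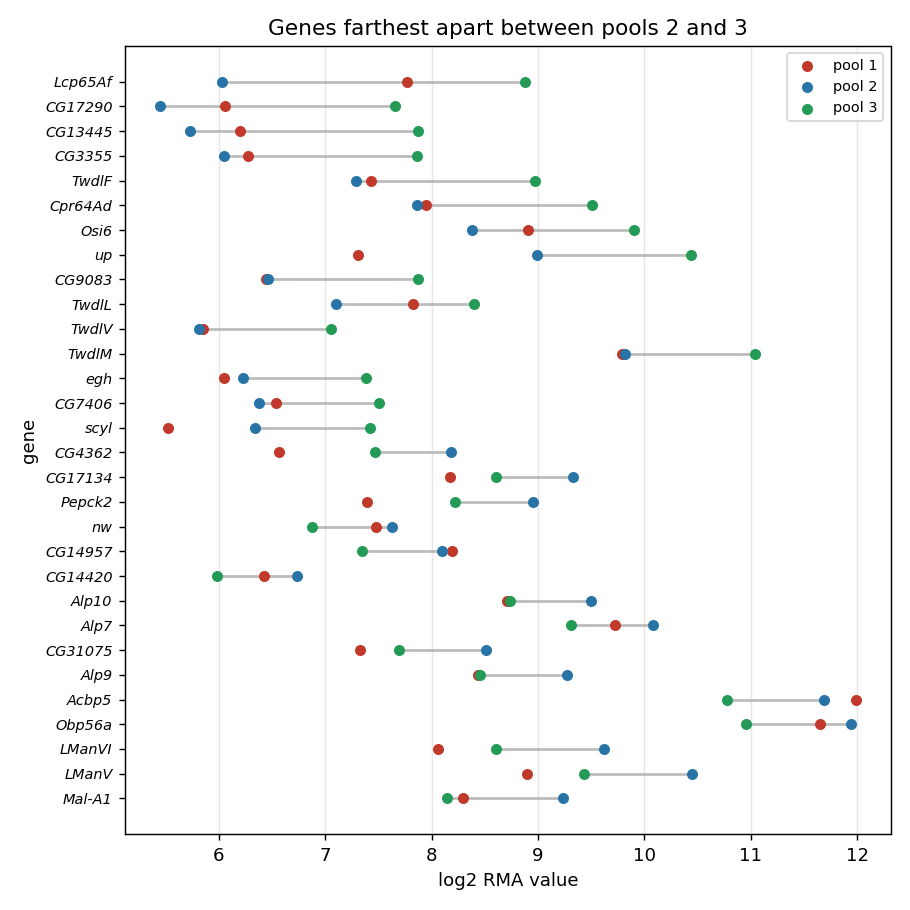
Log2 RMA value (horizontal axis) on each pool of the 30 genes with the largest differences between pools 2 and 3 at a mean level of at least 6 (vertical axis), 15 in each direction, chosen for that difference. Grey lines join pools 2 and 3. The upper genes, many of them for cuticle proteins, are highest on pool 3 (green), and the lower genes, with mannosidases and alkaline phosphatases among them, are higher on pool 2 (blue).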

How the data were processed

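The deposited log2 values came from the authors' use of RMA (version not given), as named in the submitters' processing notes. This method subtracts background, makes the arrays' distributions of probe intensities equal and combines each probe set's probes into 1 value. It compresses low signals and makes values comparable between arrays for 1 probe set, not between probe sets. The combined values were not equal in spread, with an SD over probe sets of 1.66 on pool 1, 1.77 on pool 2 and 1.78 on pool 3. No detection calls, genome build or probe sequences were used here. Groups and replicate numbers came from the sample titles, and nothing beyond the design text says how the pools were raised.

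Probe sets were named through the platform's annotation table, and their symbols were brought up to date through gene identifiers in the RefSeq table (Release 6 assembly), where 12394 of 12443 matched. Of the 13966 probe sets that are not controls, 327 name several genes and 1196 name none, and both kinds were left out. The 34 gene lists hold 824 entries, of which 582 were measured. The members and lists were chosen with earlier results of these data known. Genes were named by rule: the 25 highest, 10 middle and 10 lowest, up to 4 highest and 2 lowest of each list, the 12 with the largest SD and up to 5 in each direction that deviate most on each array, both at a level of at least 6. Genes outside the rule are said to be so.

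No test was made, since there is 1 group and no contrast, and no p-value is given. The number of arrays limits the precision. Means, SDs, ranks and correlations were computed with pandas 2.3.3 in Python 3.11.15, and figures with matplotlib 3.10.9. The ranking and the difference of pool 1 were tested on simulated data with known shifts and the same noise at every level. The choice of probe sets, list positions and controls were not tested in this way. Alternatives were another normalization, the mean over probe sets, other probe set choices, the median over pools, other limits and leaving out each pool.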

Additional observations from a re-analysis of the deposited data

How the results depend on the processing

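The counts of list genes in the top and lowest groups depended on the limits chosen, list medians on how probe sets were combined, and the spread between pools on pool 1. At a level of at least 6, the mean pairwise Pearson r of 0.956 ran from 0.933 to 0.986 when each pool was left out, the mean of the median absolute differences of 0.18 ran from 0.0950 to 0.232, and the count of 343 genes with a range of 1 or more ran from 26 to 286. The highest r and the lowest difference and count came without pool 1, where probe sets and levels were taken anew from the other pools. The count was 196 without pool 3. A range over fewer pools cannot exceed that over all pools for the same probe set, so falls in this count are largely by construction. With the top 2% and the lowest 10% in place of 5% and 20%, which are smaller groups by construction, 25 respiration and 5 muscle genes were in the top group, and 3 germ line genes and 15 receptors in the lowest. The ribosome count stayed at 25. With plain _at probe sets only, an alternative added after the data were seen, 19 of the digestion genes were in the top group in place of 24. Of 34 list medians, given as percentiles, 33 moved by less than their SD over pools after quantile normalization of these arrays alone, 29 without pool 1 and 18 with the mean of all probe sets of a gene, where neuronal genes moved most, by 11.6 percentiles. Alternatives on protein length and promoter motifs were not run, since no sequences were used here. No paired analysis was possible because the results concern 1 group and come from no test. The share of genes above the highest control was 51.6% with all non-fly controls and 60.9% with the mouse and yeast ones alone. Neither value is a detection limit, since probes of different genes do not bind equally well.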

Other observations

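Gene families grouped by their symbols, chosen after the data were seen, filled other parts of the range. The 64 measured mitochondrial ribosomal protein genes lay together at a median log2 level of 8.12, with 4 in the top group and none in the lowest, far below the cytosolic ribosome. Their highest member, *mRpL55*, had 9.99, 9.68 and 9.42 on pools 1, 2 and 3. Of the 64 genes 59 were lower on pool 3 than on pool 2, with a median difference of -0.12. The share over all genes was 57.7%, and 36 of 43 respiration genes and 29 of 34 glutathione S-transferases were also lower on pool 3. Of the detoxification enzymes, glutathione S-transferases had a median of 7.21, with 4 of 34 in the top group, led by *GstD1* (11.60, 12.34 and 11.95) and *GstE3* (9.0, 10.02 and 9.33). Cytochromes P450 had a median of 6.24 with 1 of 81 in the top group, *Cyp6a8* (9.47, 9.85 and 9.60), and UDP-glycosyltransferases had 5.11 with none of 33. Tweedle cuticle genes reached 12.02 with *TwdlN* (11.35, 11.96 and 12.77), whose probe set is of the sequence-family type, and 4 of 20 were in the top group. Ionotropic receptors resembled the odorant and gustatory receptors in position, with a median of 5.0 and 17 of 43 in the lowest group.

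Top genes often had a top gene as neighbour. Of 521 top genes with a measured neighbour in the order of protein-coding genes on the RefSeq Release 6 assembly, 116 (22.3%) had another top gene next to them, against 7.41% of the 9842 other genes. There were 9 runs of 3 or more top genes. The longest held 4 genes, the Jonah proteases *Jon65Aiv*, *Jon65Aiii*, *Jon65Aii* and *Jon65Ai* on chromosome arm 3L. Others were *Jon25Biii*, *Jon25Bii* and *Jon25Bi* on 2L, *alphaTry*, *epsilonTry* and *betaTry* on 2R, and the lysozymes *LysB*, *LysD* and *LysE* on 3L, families in which a probe set could also bind a neighbour's RNA. Runs without such a family name included *CG7714*, *CG7715* and *CG14302* on 3R, with levels from 10.3 to 13.2. Chromosome arms held similar shares of top genes, from 4.20% on the X to 5.65% on 2R, and chromosome 4 had 1 of 57 genes there and 24 (42.1%) in the lowest group.

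Genes with an annotation number in place of a name made up 41.4% of all genes, 29.0% of the top group and 46.0% of the lowest group. In the top group 372 of 542 genes were on none of the gene lists.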
